A study of Mus musculus with 14 samples.

Results

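Ly6c2, Plac8, Ccr2 and Cx3cr1 are 4 genes used to follow monocytes as they enter a tissue and turn into macrophages. They were taken as the rows with those symbols in both expression tables, 4 of 12924 genes, and were read in all 14 libraries. All 4 passed the filter on low values in both tables. The libraries came from Lewis lung carcinoma (LLC) tumors, a mouse lung tumor line grown in the flank of C57BL/6 mice and taken on day 14. The hosts were wild type (WT) or p110g-/-, mice null for PI3K gamma, the lipid kinase whose catalytic subunit is encoded by Pik3cg. RNA was taken either from 30 mg of whole tumor (3 WT and 3 p110g-/- libraries) or from 1000000 CD11b+Gr1- cells sorted by flow cytometry, which the labels call tumor-associated macrophages (TAM; 4 WT and 4 p110g-/- libraries). The genotype is that of the host, and the labels state no alteration of the implanted tumor cells, so in whole tumors it concerns only part of the RNA. Whether each library stands for its own mouse is not stated, and p-values here describe variation between libraries that could be technical.

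Monocytes leave the bone marrow through the chemokine receptor CCR2, which binds CCL2 and CCL7, and those that have just arrived carry high Ly6C on their surface. As they mature into macrophages or into patrolling monocytes, Ly6C and Plac8 go down and CX3CR1, the receptor of the membrane-tethered chemokine CX3CL1, is kept or goes up. Tumors draw in such monocytes throughout their growth, and PI3K gamma acts downstream of chemokine receptors in myeloid cells. The Gr1 antibody recognises Ly6G and also Ly6C, so a Gr1- gate selects against cells with most Ly6C, and Ly6c2 is the member most directly tied to the sort.

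The values are normalized counts, gene counts scaled to a common level by the authors and rounded. Totals per library were 33248294 to 38153438 in the TAM table and 25883561 to 27586429 in the whole tumor table, and the estimated depth, in units of 1000000 reads, was 19.7 to 40.7 for TAM and 32.1 to 44.6 for whole tumors. Pik3cg was lower in every p110g-/- library of each table: 1210 to 2211 against 2748 to 4477 in TAM, and 242 to 417 against 487 to 616 in whole tumors. Reads of the gene therefore remained in the p110g-/- libraries, and the deleted part of it is not stated in the labels. Csf1r, Adgre1 and Itgam, which define macrophages and the CD11b gate, had between 3.69 and 5.84 times the share of all counts in TAM that they had in whole tumors, within each genotype. Shares are given as CPM, the count scaled to a library total of 1000000. The T cell list summed to 3.07 to 7.31 CPM in the TAM libraries. It summed to 4.95 to 11.7 CPM in WT whole tumors, a range that overlapped that of TAM, and to 21.8 to 27.7 CPM in p110g-/- whole tumors.

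The labels number the TAM libraries 1 to 4 in each genotype, and same-numbered libraries resembled each other. The WT and p110g-/- libraries numbered 1 stood apart from numbers 2 to 4. Their summed fibroblast markers were 77.6 and 22.4 CPM, against 267 to 1652 in the other TAM libraries. Mitochondrial genes took 2.51 to 3.21% of the counts in the libraries numbered 1 and 2 and 7.70 to 14.4% in those numbered 3 and 4, with the p110g-/- library higher at each number. For this reason TAM results are given from the fit of genotype alone and, where it changes the call, from the fit with the library number as a block, which compares each p110g-/- library with its same-numbered WT library. A gene is said to have fallen or risen when its adjusted p from limma was below 0.05.

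**Figure D1:**
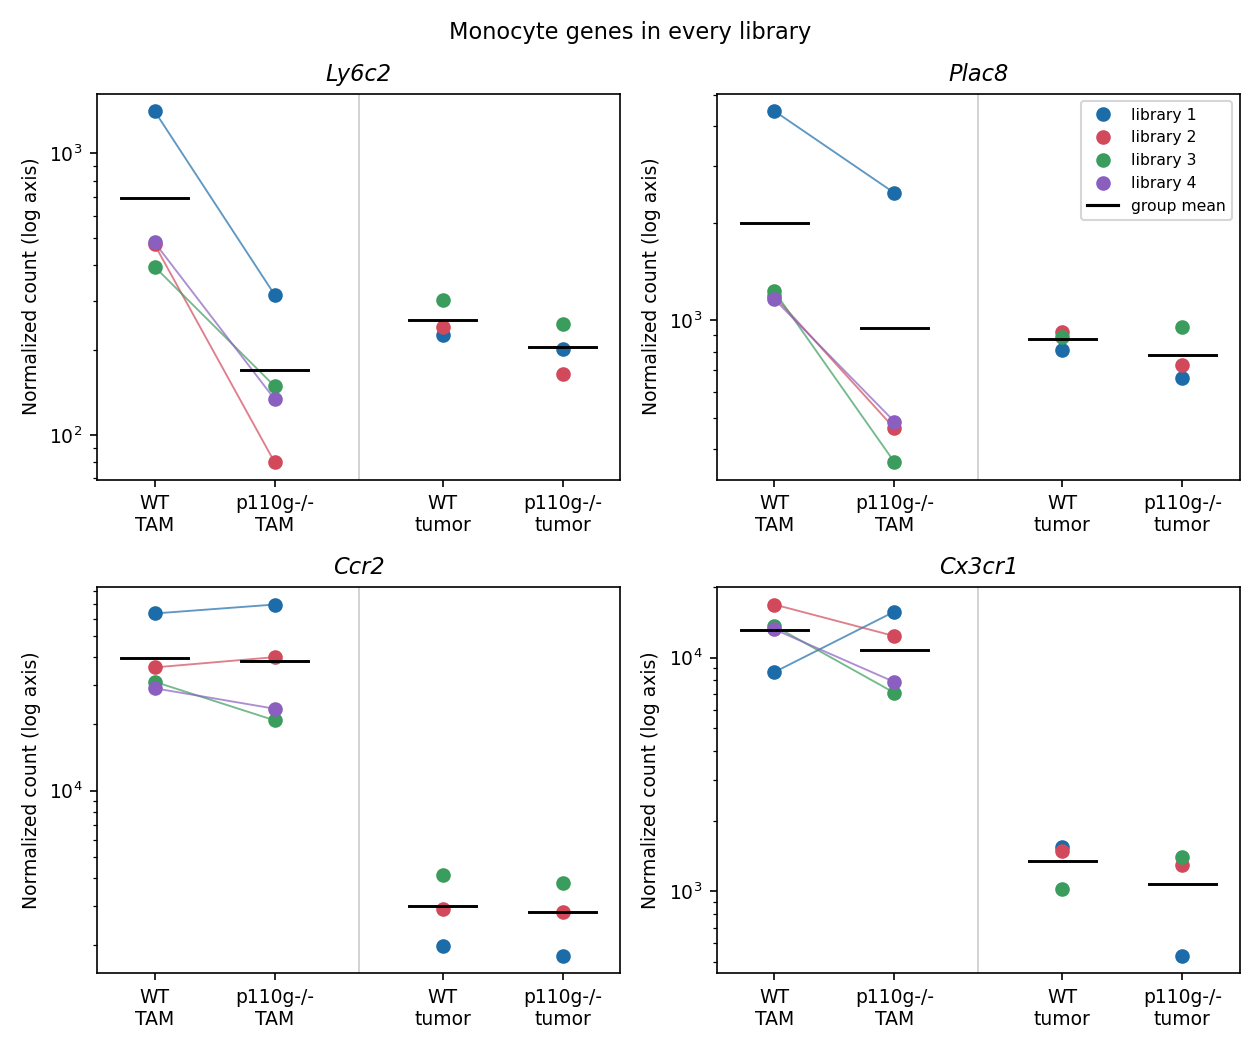
Normalized counts (log axis) of the 4 monocyte genes in all 14 libraries, colored by library number, with the mean of each group as a black bar and lines joining same-numbered TAM libraries; the grey line separates tables that were normalized separately. The Ly6c2 and Plac8 lines all slope down from WT to p110g-/- TAM, while those of Ccr2 and Cx3cr1 go both ways.

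Ly6c2 encodes Ly6C2, the GPI-anchored surface protein that marks newly recruited monocytes. In WT TAM libraries 1 to 4 it stood at 1415, 475, 396 and 483 normalized counts, and in p110g-/- TAM at 315, 80, 149 and 134. Every p110g-/- value lay below every WT value, although the WT library numbered 1 was far above the other 3. Group means were 692 ± 483 (SD, n = 4) and 170 ± 101 (SD, n = 4).

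The difference was a log2 fold change of -1.99 (SE 0.505), or 3.98-fold lower, with an adjusted p of 0.360 for genotype alone. With the number as a block the SE was 0.189 and the adjusted p 0.00604, so Ly6c2 fell in that fit. Ly6c2 was lower in 4 of 4 same-numbered pairs, by 2.66 to 5.94 times. The block fit kept the call with any 1 pair left out, at adjusted p-values from 0.00842 to 0.0373. Without both libraries numbered 1 the log2 fold change was -1.93 (adjusted p = 0.0215). Within the libraries numbered 1 and 2 it was -2.36 (adjusted p = 1) and within those numbered 3 and 4 it was -1.62 (adjusted p = 0.000455). With the mitochondrial share of each library added to the block fit, it was -2.24 and the adjusted p 0.125. In the shallowest case, Ly6c2 rested on an estimated 69 reads, in p110g-/- TAM library 4.

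In the fit of genotype alone none of the 4 members was called in TAM, where 14 of 12475 genes tested were called (0.112%), and 1 of the 4, Ly6c2, had an unadjusted p below 0.05, as had 732 of all genes. With the block, 2 of the 4 fell, Ly6c2 and Plac8, where 186 of 12475 genes fell (1.49%). Ly6c2 is also the only member whose TAM groups did not overlap, a pattern with p110g-/- lower that 1.93% of the tested genes had. A lower value in all 4 pairs was much more common, at 15.3% of the tested genes.

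Whole tumors gave a narrower range. Ly6c2 stood at 226, 242 and 301 normalized counts in WT tumors and at 202, 164 and 248 in p110g-/- tumors, so the groups overlapped. The log2 fold change was -0.33 (95% interval -0.73 to 0.07, adjusted p = 0.265). None of the 4 members was called in whole tumors by limma, where 553 of 12717 genes were called (4.35%), and none had an unadjusted p below 0.05, as 3332 of all genes had. In bulk RNA of this kind, fewer cells of a type and less RNA per cell cannot be told apart.

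Reads of Ly6c2 can be confused with those of Ly6c1, its neighbour and near-identical copy, which is also expressed by endothelium. The coding sequences are 396 bases each, differ at 9 positions (97.7% identity) and share an identical run of 188 bases. Of the 817 distinct stretches of 50 bases in Ly6c2 transcripts, 30.8% also occur in Ly6c1. How the authors assigned such reads is not stated, so the values of both genes are uncertain to that extent. The opening 120 bases of the coding sequences, from GENCODE transcripts on GRCm38, hold 6 of the 9 differences, printed in capitals, and are shown because they hold most of what separates the copies:
Ly6c2: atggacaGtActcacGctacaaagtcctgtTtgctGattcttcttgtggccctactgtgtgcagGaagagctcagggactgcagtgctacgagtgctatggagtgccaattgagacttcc
Ly6c1: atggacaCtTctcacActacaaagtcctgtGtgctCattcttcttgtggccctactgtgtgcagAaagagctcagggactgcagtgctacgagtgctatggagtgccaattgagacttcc

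The values of the copies nevertheless followed different courses. In TAM libraries 1 to 4 Ly6c1 stood at 46, 109, 315 and 393 normalized counts in WT and at 27, 58, 288 and 169 in p110g-/-, lowest in the libraries numbered 1, where Ly6c2 was highest. The log2 ratio of Ly6c2 to Ly6c1 ran from 4.91 in WT library 1 to 0.30 in WT library 4, and from 3.50 in p110g-/- library 1 to -0.95 in library 3. Ly6c1 was below WT in all 4 pairs, at a log2 fold change of -0.75 (adjusted p = 0.999, and 0.120 with the block).

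In whole tumors the copies pointed in opposite directions. Ly6c1 stood at 970, 1237 and 1227 normalized counts in WT tumors and at 1835, 1405 and 1591 in p110g-/- tumors, without overlap, at a log2 fold change of 0.49 (adjusted p = 0.0630). Non-overlapping groups with p110g-/- higher were frequent in this comparison, at 15.7% of 12717 tested genes. The endothelial list, whose cells also express Ly6c1, summed to 87.8 to 118 CPM in WT tumors and 117 to 135 CPM in p110g-/- tumors. None of its 9 tested genes was called, all 9 had log2 fold changes above 0, and their part in the Ly6c1 value was not tested.

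Plac8 encodes a small cysteine-rich protein abundant in Ly6C-high monocytes and neutrophils. Its normalized counts were 4450, 1189, 1229 and 1163 in WT TAM and 2481, 463, 364 and 486 in p110g-/- TAM. The libraries numbered 1 were the highest of each genotype by a wide margin, 3.73 times the mean of the other 3 in WT and 5.67 times in p110g-/-, so the groups overlapped through p110g-/- library 1. Among the other 6 libraries, every p110g-/- value was below every WT value.

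The log2 fold change of Plac8 in TAM was -1.30, with an SE of 0.676 and an adjusted p of 0.999 for genotype alone. The block brought the SE to 0.139 and the adjusted p to 0.00805, and the 4 pairs ran from 1.79 to 3.38 times lower. Without both libraries numbered 1 the fit of genotype alone gave -1.46 (adjusted p = 0.00684). With the block and without pair 2 the call was lost, at -1.28 and an adjusted p of 0.0767, and with the mitochondrial share added it was lost at -1.27 and 0.224. Within the libraries numbered 1 and 2 the value was -1.10 (adjusted p = 1), and within those numbered 3 and 4 it was -1.50 (adjusted p = 0.000352).

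In whole tumors Plac8 stood at 810, 918 and 891 normalized counts in WT and at 663, 727 and 956 in p110g-/-. The p110g-/- tumor numbered 3 exceeded every WT tumor. The log2 fold change was -0.17 (95% interval -0.48 to 0.13, adjusted p = 0.432). No stretch of 50 bases in Plac8 transcripts occurred in another gene.

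**Figure D2:**
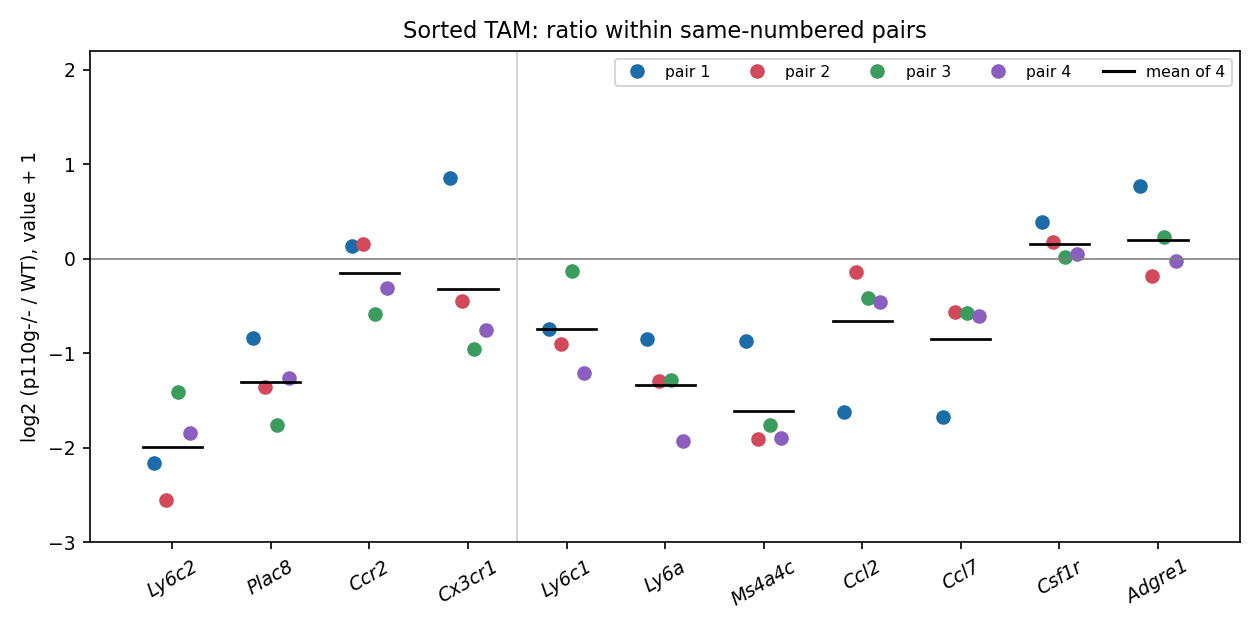
Log2 ratio of p110g-/- to WT normalized count (each plus 1) in each of the 4 same-numbered TAM pairs, with the mean as a black bar, for the 4 members on the left and for 7 related genes on the right. All 4 Ly6c2 and Plac8 points lie below 0, whereas Cx3cr1 has pair 1 at 0.86 and its other pairs between -0.95 and -0.45.

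Because Ly6c2 and Plac8 fell together in the block fit, their promoters are shown, from the RefSeq windows on GRCm38.p6, which matched all 4 members. The windows run from 250 bases before to 50 bases after a start site. For each gene the part printed lies before the annotated gene, in the window with the highest end coordinate. The rest of that window and the gene's other window are not printed. Capitals mark GAGGAA, a core letter string of sites for PU.1, a transcription factor of myeloid cells, searched on both strands. The Ly6c2 stretch is chr15:75112067-75112221 on the minus strand and the Plac8 stretch is chr5:100572254-100572455 on the minus strand:
Ly6c2: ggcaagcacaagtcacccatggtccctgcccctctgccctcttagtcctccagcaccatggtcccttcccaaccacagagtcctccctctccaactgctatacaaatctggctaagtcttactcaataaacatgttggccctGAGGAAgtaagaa
Plac8: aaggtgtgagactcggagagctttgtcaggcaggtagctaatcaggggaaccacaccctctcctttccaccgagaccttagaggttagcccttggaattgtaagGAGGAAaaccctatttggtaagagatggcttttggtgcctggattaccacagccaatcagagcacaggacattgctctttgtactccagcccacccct

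GAGGAA occurred in 2 of 2 Ly6c2 windows, 1 of 2 Plac8 windows, and in neither the Ccr2 nor the Cx3cr1 window, against 28.3% of 32851 windows of 300 bases. The core string of interferon-stimulated response elements was in 3.44% of all windows and in none of the members' windows. These are matches of letters in short windows, and binding was not measured.

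Ccr2 encodes the receptor that guides monocytes to CCL2 and CCL7. It was the most abundant member: 63264, 36060, 31062 and 29026 normalized counts in WT TAM and 69414, 40127, 20781 and 23457 in p110g-/- TAM. The groups overlapped over most of their range, and the libraries numbered 1 were the highest of each genotype. The log2 fold change was -0.15 (95% interval -0.47 to 0.17 with the block), at an adjusted p of 0.999 without and 0.609 with the block.

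The direction of Ccr2 depended on the libraries used. It was higher in p110g-/- in pairs 1 and 2, by 1.10 and 1.11 times, and lower in pairs 3 and 4, at 0.669 and 0.808 times WT. Within the libraries numbered 3 and 4 the log2 fold change was -0.44 (adjusted p = 0.0122), and within those numbered 1 and 2 it was 0.14 (adjusted p = 1). The mitochondrial share was 9.01 and 14.4% in p110g-/- libraries 3 and 4 against 7.70 and 9.59% in WT. With that share added to the block fit of all TAM libraries, the log2 fold change was 0.06 (adjusted p = 0.951). Its part in the difference within numbers 3 and 4 alone was not tested.

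In whole tumors Ccr2 stood at 1972, 2906 and 4146 normalized counts in WT and at 1791, 2819 and 3815 in p110g-/-. The spread within a genotype was several times the difference between them, and the log2 fold change was -0.10 (95% interval -0.84 to 0.64, adjusted p = 0.871). Leaving out p110g-/- tumor 1 gave 0.19 and leaving out WT tumor 3 gave 0.16.

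The ligand genes of CCR2 were read from the same libraries. Ccl2 stood at 18260, 10294, 14054 and 15036 normalized counts in WT TAM and at 5941, 9377, 10571 and 10992 in p110g-/- TAM. It was lower in all 4 pairs, most in pair 1, and its log2 fold change of -0.65 was not called (adjusted p = 0.663, and 0.199 with the block). Ccl7 stood at 8643, 5823, 6652 and 7728 in WT TAM and at 2704, 3946, 4483 and 5096 in p110g-/- TAM. Its groups did not overlap, a pattern with p110g-/- lower that 1.93% of the tested genes had. The log2 fold change of Ccl7 was -0.85 (adjusted p = 0.326, and 0.0801 with the block). In whole tumors Ccl2 and Ccl7 were not called, at -0.23 and -0.41 (adjusted p = 0.505 and 0.263). Ccl8 and Ccl12, other ligands, were not analysed here.

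Cx3cr1 encodes the fractalkine receptor, which is high on patrolling monocytes and many tissue macrophages. It stood at 8680, 16887, 13679 and 13225 normalized counts in WT TAM and at 15748, 12377, 7076 and 7871 in p110g-/- TAM. The libraries numbered 1 broke the pattern of the rest: WT library 1 was the lowest of its group and p110g-/- library 1 the highest of its own. The log2 fold change was -0.32 (95% interval -0.99 to 0.35), at an adjusted p of 0.999 and, with the block, 0.594.

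Pair 1 went against the sign of that value. In it p110g-/- was 1.81 times WT, while in pairs 2 to 4 it was 0.517 to 0.733 times WT. Without pair 1 the block fit gave -0.72 (adjusted p = 0.0139), a call that the fit of genotype alone on the same 6 libraries did not make (adjusted p = 0.280). Weighting the libraries by their estimated quality gave -0.73 (adjusted p = 0.0203). Within the libraries numbered 1 and 2 it was 0.21 (adjusted p = 1), and within those numbered 3 and 4 it was -0.85 (adjusted p = 0.000267). With the mitochondrial share added to the block fit, the value was 0.07 (adjusted p = 0.974).

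In whole tumors Cx3cr1 stood at 1550, 1489 and 1024 normalized counts in WT and at 531, 1296 and 1406 in p110g-/-. The log2 fold change of -0.43 (95% interval -1.24 to 0.39, adjusted p = 0.472) came from p110g-/- tumor 1, and without that library it was 0.02.

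Cx3cl1, the only ligand of CX3CR1 in this list, rose in p110g-/- whole tumors, from 380, 404 and 367 normalized counts in WT to 501, 653 and 585. The groups did not overlap, a pattern with p110g-/- higher that 15.7% of the tested genes had. The log2 fold change was 0.59 (SE 0.105, adjusted p = 0.0293), and 2.25% of the genes tested rose. In TAM it was low, 32 to 268 normalized counts, with a log2 fold change of -0.18 (adjusted p = 0.999). The enzymes known to shed CX3CL1, Adam10 and Adam17, were at 0.00 and 0.12 in whole tumors (adjusted p = 0.993 and 0.183), and none of the 5 tested ligand and sheddase genes was called in TAM.

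Levels of the members were compared per length, as CPM per kb of exon, within TAM. In WT TAM Ccr2 was highest at 174 ± 66.9 (SD, n = 4), followed by Cx3cr1 at 86.5 ± 23.2, Plac8 at 42.1 ± 33.4 and Ly6c2 at 23.5 ± 16.0. Each neighbouring pair in that order overlapped within 1 SD. The same order held in p110g-/- TAM, at 165 ± 102, 69.1 ± 28.7, 19.7 ± 22.0 and 5.64 ± 3.59, again with neighbours overlapping within 1 SD. By their mean normalized count, Ccr2 was above 99.4% of the 12924 genes in WT TAM and Ly6c2 above 43.6%, a share that was 22.6% in p110g-/- TAM.

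The members separated by where their RNA was found. Between tables that were normalized separately only descriptions in CPM can be given. Ccr2 was 10.7 times as abundant in TAM as in whole tumors in WT and 10.5 times in p110g-/-, and Cx3cr1 7.87 and 7.61 times. For both, the lowest TAM library was above the highest tumor library, at 855 against 150 CPM for Ccr2 and 253 against 56.8 CPM for Cx3cr1 in WT. Plac8 was only 1.85 times as abundant in WT TAM, and 0.940 times in p110g-/-, by means that the libraries numbered 1 raise. WT TAM library 1 held 130 CPM of Plac8 and the others 34.3 to 37.0, against 29.7 to 33.7 in WT tumors. In p110g-/- TAM library 1 held 74.1 CPM and the others 10.6 to 13.6, against 24.4 to 36.1 in p110g-/- tumors. Ly6c2 was 2.18 times as abundant in WT TAM and 0.636 times in p110g-/-, so its mean in the p110g-/- sort was below that of the tumor. Its library 1 held 41.2 CPM in WT TAM, the others 11.9 to 14.2. In p110g-/- TAM these were 9.41 and 2.34 to 4.33 CPM. Ly6c1, with a ratio of 0.153 in WT and 0.0631 in p110g-/-, was the reverse of Ccr2.

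For Ly6c2 the groups ranked, in CPM, from WT TAM (20.4 ± 13.9) to WT tumor (9.36 ± 1.38), p110g-/- tumor (7.71 ± 1.53) and p110g-/- TAM (4.90 ± 3.12), and all neighbours overlapped within 1 SD. By library, the lowest WT TAM value (11.9) was just above the highest WT tumor (10.9). For Plac8 the order was WT TAM (59.1 ± 47.0), WT tumor (31.9 ± 2.02), p110g-/- tumor (29.5 ± 5.99) and p110g-/- TAM (27.7 ± 30.9), with all neighbours overlapping within 1 SD. For Ccr2 and Cx3cr1 the TAM groups were above the tumor groups, and the genotypes within each lay inside the spread.

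The genotype effects in TAM and whole tumor were then compared directly, by subtracting the tumor log2 fold change from that of TAM in 1 fit of all 14 libraries. For genotype alone none of the 4 members was called by limma, where 18 of 12396 genes were (0.145%). Of the 4, 1 (Ly6c2) had an unadjusted p below 0.05, as had 805 genes. With the number as a block within each tissue, the difference was -1.66 for Ly6c2 (SE 0.261, adjusted p = 0.0128) and -1.13 for Plac8 (SE 0.205, adjusted p = 0.0250), where 2.21% of the genes had a lower effect in TAM. The tumor numbers did not pair the libraries, and this fit carries them only as a number. The differences were -0.05 for Ccr2 (95% interval -0.44 to 0.35 with the block) and 0.11 for Cx3cr1 (-1.10 to 1.32).

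Ratios within a library are free of its scaling. The log2 ratio of Ly6c2 to Ccr2 was -6.29 to -5.48 in WT TAM and -8.95 to -7.11 in p110g-/- TAM, without overlap. The ratio of Plac8 to Csf1r was -5.71 to -3.50 and -7.25 to -4.73, and overlapped through the libraries numbered 1. Ccr2 to Csf1r, the gene of the receptor for macrophage colony-stimulating factor, was -0.79 to 0.33 and -1.13 to 0.08. Cx3cr1 to Csf1r was -2.53 to -1.70 and -2.68 to -2.06. Ccr2 to Cx3cr1 was 2.87 in WT library 1, with the rest of that group at 1.09 to 1.18, and 2.14 in p110g-/- library 1 against 1.55 to 1.70.

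**Figure D3:**
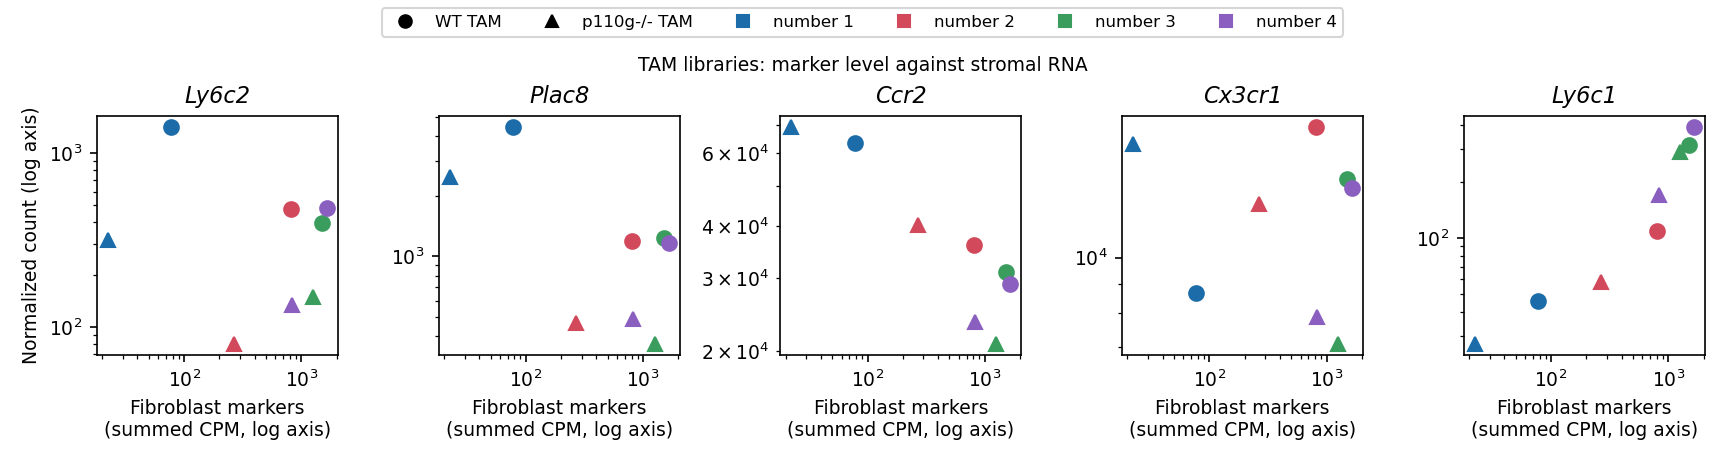
Normalized count (log axis) of each member and of Ly6c1 against the summed CPM of 8 fibroblast markers (log axis) in the 8 TAM libraries; circles are WT, triangles p110g-/-, and colors the library number. Ccr2 is highest and Ly6c1 lowest in the libraries numbered 1, which hold the least fibroblast RNA (77.6 and 22.4 CPM).

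The libraries numbered 1 carried more of 3 members in both genotypes. Their ratio to the mean of numbers 2 to 4 was 3.14 (WT) and 2.60 (p110g-/-) for Ly6c2, 3.73 and 5.67 for Plac8, and 1.97 and 2.47 for Ccr2. For Cx3cr1 it was 0.595 and 1.73, and for Csf1r 1.00 and 1.23. All 8 fibroblast markers had log2 fold changes below 0 in p110g-/- TAM, with a median of -0.86, and 1 of them, the matrix gene Sparc, fell with the block (adjusted p = 0.0149). The part of fibroblast RNA in the members' values was not tested. The neutrophil list, 9 of whose 12 genes were in the tables, summed to 275 to 510 CPM in WT TAM and 384 to 593 CPM in p110g-/- TAM, and none of the 7 tested was called in TAM.

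Across the 8 TAM libraries, the members' log2 values correlated at r = 0.88 for Ly6c2 and Plac8, 0.82 for Plac8 and Ccr2, 0.49 for Ly6c2 and Ccr2 and 0.20 for Ly6c2 and Cx3cr1. After removal of the genotype means these were 0.89, 0.91, 0.67 and -0.18. These are descriptions over libraries that share genotype, number and depth.

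Among 10615 genes compared over the 8 TAM libraries, the pattern most like Ly6c2 was that of Slfn4 (r = 0.995), a Schlafen family gene, then Rsad2 (0.977), an interferon-induced antiviral enzyme gene, Tmem126b, Isg20 and H2-Q7. Slfn4 stood at 44909, 5733, 6123 and 5976 normalized counts in WT TAM and at 3986, 340, 1210 and 977 in p110g-/- TAM, the same single high WT library and separated groups as Ly6c2. Most like Plac8 were Clec2i (0.992), Slc44a2, Lilra6, Cd300a and Krcc1. Most like Ccr2 were Mta3 (0.996), Ctbp2, Etv6, Gbp9 and Crlf3. Most like Cx3cr1 were Susd6 (0.985), Adrbk2, Fcrls, Cd72 and Dennd2c. No gene stood among the 5 most alike for 2 members in TAM. Over the 6 whole tumor libraries the genes most like Ly6c2 were others: Lipt2 (0.994), Rnase4, Rab8a, Chmp4b and Rab11a.

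**Figure D4:**
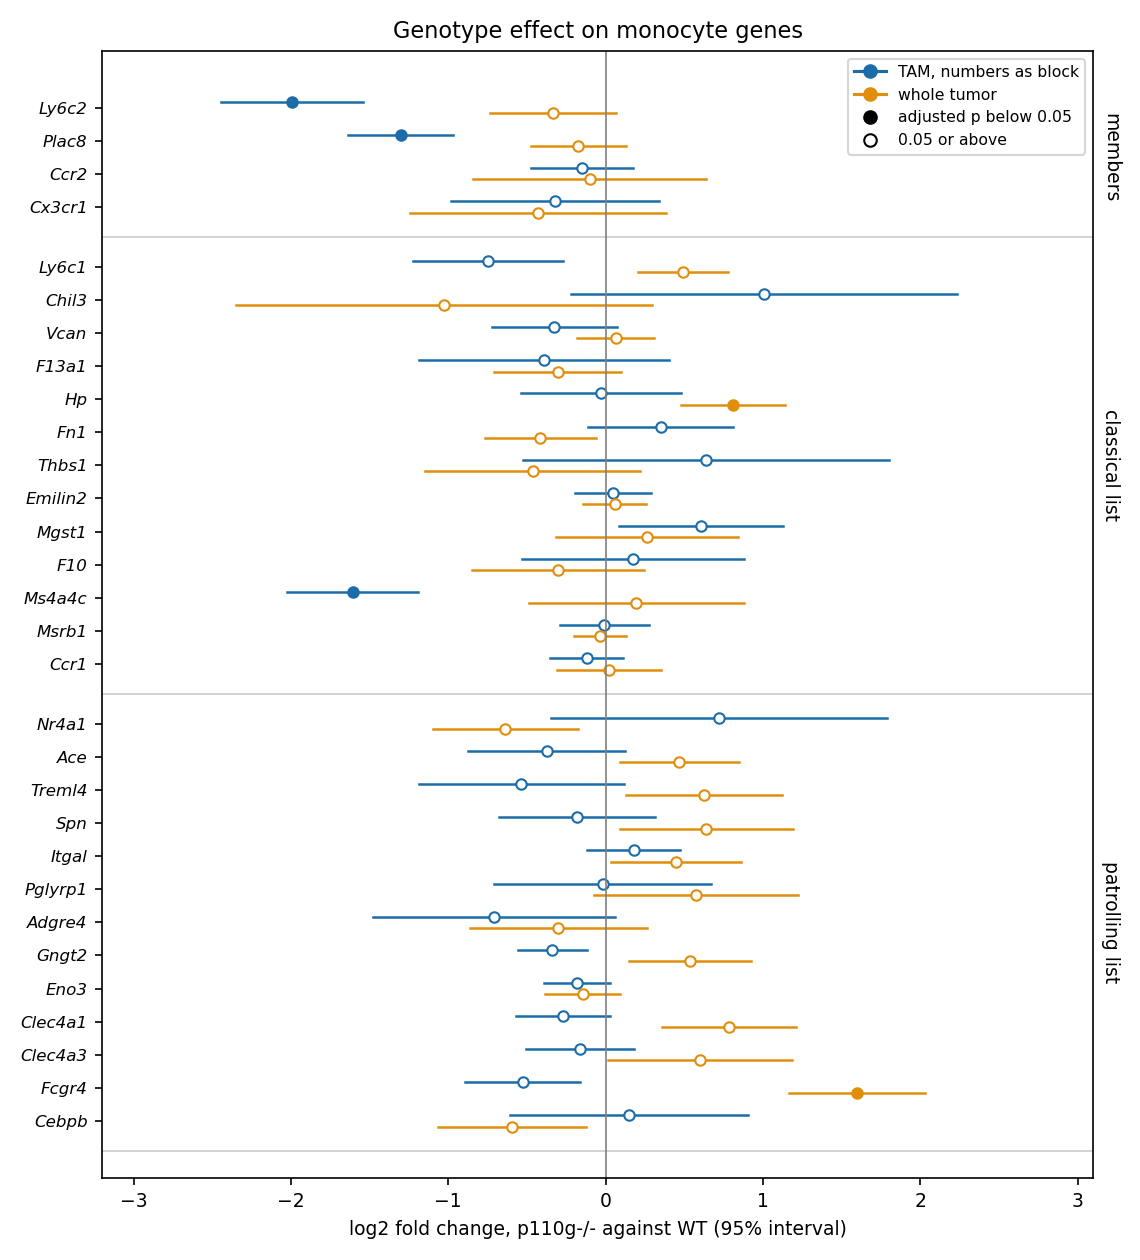
Log2 fold change of p110g-/- against WT with its 95% interval for the members and for genes of the classical and patrolling monocyte lists, in TAM with library number as a block (blue) and in whole tumor (orange); filled points have an adjusted p below 0.05. Ly6c2, Plac8 and Ms4a4c are the filled TAM points, and Fcgr4 and Hp the filled tumor points. The tumor points are from the fit of genotype alone, so the fits of the 2 colors differ. For genotype alone none of these genes was called in TAM.

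Without the mitochondrial share in the fit, the classical Ly6C-high list did not follow Ly6c2 and Plac8 as a whole. Of its 14 genes, all tested, 7 had log2 fold changes above 0 and 7 below 0 in TAM, with a median of 0.01 beside -0.01 over all genes. With that share added to the block, 13 were below 0 and 1 above, with a median of -0.36, and none was called (lowest adjusted p = 0.243). None was called for genotype alone, and with the block 1 fell, Ms4a4c, a tetraspan membrane protein gene. Ms4a4c stood at 7403, 4660, 4314 and 4692 normalized counts in WT TAM and at 4049, 1243, 1273 and 1259 in p110g-/- TAM. The groups did not overlap, as 1.93% of the tested genes did not with p110g-/- lower. Its log2 fold change was -1.61 (adjusted p = 0.342, and 0.00818 with the block). Chil3, a chitinase-like lectin gene of this list, went the other way in pairs 2 to 4. It stood at 1404, 259, 104 and 116 in WT TAM and at 734, 382, 463 and 560 in p110g-/- TAM. Its mean log2 ratio over the pairs was 1.01, and it was not called in either fit.

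Hp, the haptoglobin gene of the same list, had the high libraries numbered 1 without being called in TAM. It stood at 623, 156, 123 and 118 normalized counts in WT TAM and at 631, 101, 107 and 190 in p110g-/- TAM (log2 fold change -0.03, adjusted p = 0.999). In whole tumors Hp rose from 433 ± 36.1 to 767 ± 146 (SD, n = 3 each), at 0.81 and an adjusted p of 0.0293. It was the only one of the 14 called there for genotype alone. In that fit Chil3 was at -1.03 in whole tumors (adjusted p = 0.296). Of 9 tested neutrophil genes, 8 had log2 fold changes above 0 in whole tumors, with a median of 0.65, and none was called. The part of neutrophils in the Hp value was not tested.

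Of the Ly6C-low patrolling list, 13 of 14 genes were tested and none was called in TAM in either fit, where 10 of the 13 had log2 fold changes below 0 and the median was -0.18. In whole tumors the median was 0.54 and Fcgr4, an activating Fc receptor gene, rose, from 172, 240 and 278 normalized counts to 595, 661 and 817 (log2 fold change 1.60, adjusted p = 0.00940). The lectin receptor genes Clec4a1 and Clec4a3 were at 0.78 and 0.60 (adjusted p = 0.0556 and 0.182). The NK cell list rose in these tumors in 2 of 8 tested genes and the T cell list in 5 of 9, where 2.25% of all tested genes rose. With the tumor numbers as a block, 6 NK and 5 T cell genes rose, where 439 of 12717 genes did. The part of such cells, some of which also express CX3CR1 or Plac8, in the members' tumor values was not tested. Nr4a1, which patrolling monocytes need to develop, was not called in TAM (0.72, adjusted p = 0.999) or in whole tumors (-0.64, adjusted p = 0.102).

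Of 18 maturation genes, none was called in TAM for genotype alone, and with the block 2 fell. Fcgr1, the gene of the high-affinity Fc receptor CD64, went from 11141 ± 3701 to 7109 ± 2512 normalized counts (SD, n = 4 each; -0.66, adjusted p = 0.824, and 0.0103 with the block). Maf, a transcription factor gene of macrophages, went from 8872 ± 2224 to 7013 ± 2228 (-0.36, adjusted p = 0.999, and 0.0331 with the block). The macrophage genes Csf1r and Adgre1 were at 0.16 and 0.20 (adjusted p = 0.999 each, and 0.392 and 0.530 with the block). In whole tumors 16 of the 18 had log2 fold changes above 0, with a median of 0.16. The adhesion gene Vcam1 rose there (0.32, adjusted p = 0.0455), and the lipid carrier gene Apoe was at 0.60 (adjusted p = 0.189).

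Among 12 transcription factors of monocyte development, none was called in TAM for genotype alone and 1 rose with the block, where 1.01% of the tested genes rose. Egr1, an immediate-early factor, stood at 2915, 3975, 3134 and 3670 normalized counts in WT TAM and at 6392, 7384, 5222 and 4831 in p110g-/- TAM, without overlap, as 2.37% of the tested genes were with p110g-/- higher (0.79, adjusted p = 0.184, and 0.0213 with the block). None of the 12 was called in whole tumors for genotype alone.

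None of 12 other trafficking genes was called in TAM in either fit. None was called in whole tumors for genotype alone, where Itga4, an integrin subunit gene, was at 0.71 (adjusted p = 0.0830) and the chemokine receptor gene Cxcr4 at 0.52 (adjusted p = 0.0959). Of 9 tested genes of monocyte-derived dendritic cells, Ifitm1, an interferon-induced membrane protein gene, rose in TAM with the block (0.72, adjusted p = 0.999, and 0.0109 with the block).

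In the Ly6 neighbourhood, 5 genes were tested in TAM, and Ly6a, the gene of the surface antigen Sca-1, fell with the block. It stood at 7883, 4559, 3531 and 4646 normalized counts in WT TAM and at 4377, 1866, 1448 and 1225 in p110g-/- TAM, at -1.34 (adjusted p = 0.521, and 0.0107 with the block). In whole tumors all 6 tested genes of the list had log2 fold changes above 0, Ly6a at 0.63 (adjusted p = 0.0566), and none was called. Ly6g was not analysed here.

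The type I interferon list contains Rsad2, named above as alike to Ly6c2. All 19 tested genes had log2 fold changes below 0 in TAM, with a median of -1.62. For genotype alone 2 of the 19 fell, where 0.0401% of all tested genes did, and with the block 19 of 19, where 1.49% did. The list, like the others, was chosen with earlier results of these data known. With the mitochondrial share added to the block, none of the 19 was called (adjusted p from 0.066 to 0.269), all 19 stayed below 0 and the median was -1.52. That fit leaves 2 residual degrees of freedom and called 2 genes in all, both higher in p110g-/- and neither in any of the 18 lists, so no call made with the block in a list held in it. In whole tumors 17 of the 19 were above 0 and 1 rose. Irf7, a transcription factor gene of that response, went from 8570 ± 2416 to 2120 ± 1006 normalized counts in TAM (SD, n = 4 each), lower in 4 of 4 pairs.

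Of the markers of other cells, the B cell list had none of its tested genes called in either tissue. The plasmacytoid dendritic cell list had 1 of 3 fall in TAM, Bst2, which the interferon list also holds. In whole tumors the eosinophil gene Ccr3 rose, the only tested gene of its list, and of 4 tested carcinoma genes 2 fell, the keratin genes Krt8 and Krt18. The part of these cells in the members' whole tumor values was not tested.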

How the data were processed

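RNA from 8 sorted TAM libraries and 6 whole tumor libraries had been extracted with an RNeasy kit and sequenced on a HiSeq 2000, per the labels' protocols and design text. Bowtie2, DESeq and the build mm9 are named, without versions or roles, per the submitters' processing notes. The authors deposited a table for each tissue with the same 12924 genes, as a score: gene counts scaled by library and rounded, called normalized counts here. The sources used here do not give the formula, the gene counter or the annotation. A further column without explanation in each table was not used. Depth was estimated from the spacing of the rounded values by a step finder that recovered 14 of 14 simulated libraries within 1 percent. By those steps 3 reads are worth 1.79 to 5.81 normalized counts, counting error only.

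Genotypes were compared within each table by limma 3.58.1 (R 4.3.3) on log2(value + 1), with a prior that follows mean expression, two-sided, Benjamini-Hochberg adjusted over all genes with at least 10 normalized counts in 4 TAM or 3 tumor libraries. Fold changes on that scale understate the change of low genes. The fits were tested on simulated data with known changes. CPM were computed from column totals, and lengths from GENCODE exons of GRCm38. The 4 members and the 18 gene lists were chosen with earlier results of these data known. Other genes were named by a rule: Pik3cg, Ly6c1, Itgam, the ligands, Csf1r, Adgre1 and Nr4a1, up to 6 called genes per list, or the 2 with the smallest p, and the 5 genes most like each member with a mean of at least 100. Some items it picks are not reported here. Adam10 and Adam17 lie outside it and were added after their values were seen.

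Same-numbered TAM libraries deviated together from their group means (r = 0.847, 0.472, 0.808 and 0.702 over 12475 genes for numbers 1 to 4), so the numbers were taken to pair them, from the data and not from a label. The libraries numbered 4 each correlated best with number 3 of the other genotype. The other settings tried were pseudocounts, filters, scalings, array weights and left-out libraries. Fits with the block that leave out a pair, use quantile normalization or add the mitochondrial share were chosen after seeing the data.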

Additional observations from a re-analysis of the deposited data

Results flagged for a closer look

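In groups of 4 libraries, 3 of the 8 member groups tested held a library far above the other 3, by a rule applied to counts that were not logged. The rule has a nominal rate of about 5% per group. The 8 groups are 4 genes read in the same libraries and all 3 flags are libraries numbered 1, so their count cannot be set against that rate. They were WT TAM library 1 for Ly6c2 at 1415 normalized counts, WT TAM library 1 for Plac8 at 4450 and p110g-/- TAM library 1 for Plac8 at 2481. The genotype effect of Ly6c2 differed between TAM and whole tumor by -1.66 and that of Plac8 by -1.13 on the log2 scale, each past the threshold only with the library number as a block (adjusted p = 0.0128 and 0.0250, against 0.617 and 1 without it).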

How the results depend on the processing

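Sign and side of the threshold of Ly6c2 and Plac8 in TAM (log2 fold changes of -1.99 and -1.30, not called) stayed as reported under every pseudocount, filter and scaling tried without a block, and of all 4 members in whole tumors under those settings. Both crossed it with the replicate block (-1.99 and -1.30), array weights (-1.62 and -1.36), without both libraries numbered 1 (-1.93 and -1.46), in libraries 3 and 4 only (-1.62 and -1.50) and with the block and quantile normalization (-1.94 and -1.30). With the block and without each pair in turn, Ly6c2 ran from -2.19 (without pair 3) through -2.04, -1.93 and -1.80 and Plac8 from -1.46 through -1.32 to -1.15. Cx3cr1 crossed it with array weights (-0.73), in libraries 3 and 4 (-0.85) and with the block without pair 1 (-0.72). Ccr2 crossed it in libraries 3 and 4 (-0.44). In libraries 1 and 2 Ccr2 and Cx3cr1 reversed (0.14 and 0.21), as they did with the block and the mitochondrial share (0.056 and 0.069). The cause was not tested. At least 1 fit of array weights stopped before it converged.

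Leaving out each TAM library gave -2.35 to -1.58 for Ly6c2, -1.93 to -0.83 for Plac8, -0.49 to 0.10 for Ccr2 (0.10, 0.09 and 0.03 without WT 1, p110g-/- 3 and p110g-/- 4) and -0.53 to -0.15 for Cx3cr1, none called. In whole tumors the ranges were -0.48 to -0.18, -0.33 to -0.06, -0.37 to 0.19 (0.16 without WT 3 and 0.19 without p110g-/- 1) and -0.68 to 0.019, and Ccr2 was 0.035 with array weights. For the difference between tissues they were -2.01 to -1.25, -1.76 to -0.65, -0.39 to 0.22 and -0.34 to 0.36. There Ccr2 reversed without WT TAM 1 (0.20), p110g-/- TAM 3 (0.19), p110g-/- TAM 4 (0.13), WT tumor 1 (0.22) and p110g-/- tumor 3 (0.21), and Cx3cr1 without WT TAM 1 (-0.08), p110g-/- TAM 1 (-0.10), WT tumor 1 (-0.0024) and p110g-/- tumor 1 (-0.34). With the replicate block it was -1.66 for Ly6c2 and -1.13 for Plac8, both called.

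The count of genes called in TAM (14) was 9 with a minimum of 50, 6 with quantile normalization, 88 with all 14 libraries in 1 fit, 312 with the block, 999 with array weights, 133 without both libraries numbered 1, 0 in libraries 1 and 2 (limma) and 1428 in libraries 3 and 4. It was 611, 78, 91 and 98 with the block and without pair 1, 2, 3 or 4, 359 with the block and quantile normalization, 2 (both higher) with the block and the mitochondrial share, and 3 to 40 without single libraries. In whole tumors (553) it was 15 with all 14 libraries in 1 fit, 2308 with array weights and 29 (without p110g-/- 2) to 2001 (without p110g-/- 1) without single libraries. For the difference (18) it was 327 with the block and 0 to 101 without single libraries. Scaling to column totals moved the tumor calls from 286 higher and 267 lower to 393 and 182, and quantile normalization to 282 and 377.

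Whole tumor numbers did not pair the libraries (same-number r of 0.0947, 0.0763 and 0.178). With them as a block 759 genes were called and no member. Among genes named above it added Chil3, lower (adjusted p = 0.0321), and Clec4a1, Clec4a3, Itga4, Cxcr4 and Apoe, higher (0.0165, 0.0359, 0.0296, 0.0150 and 0.00762), and Vcam1 lost its call (0.0577). In TAM the block changed no call of Ccr2 or Cx3cr1. Depth limits Ly6c2 most, at an estimated 69 reads in its shallowest library.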
